A study of Homo sapiens with 4 samples.

Results

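The genes described are the sensors and adaptors of the inflammasome, the caspases, and the BCL2 family with its partners in cell death. They were chosen by symbol alone, from the gene probes beginning with NLR, AIM2, PYCARD, CARD or CASP with a number, GSDM, BCL2, MCL1, CFLAR, CYCS or APAF1, or equal to NOD1, NOD2, BAX, BAK1, BID or BAD. No gene probe matched GSDM, CYCS, APAF1, NOD1, BAX, BAK1, BID or BAD, so these were not measured. The symbols beginning with BCL2 were BCL2 and BCL2L1 only. The 18 genes described, of 785 gene probes in all, were measured by NanoString digital counting, a method that counts barcoded probes on individual RNA molecules with no amplification step, in total RNA of 4 lines of HAP1. HAP1 is an adherent, near-haploid human cell line that descends from a chronic myeloid leukaemia line. The 2 wild-type lines were numbered 1 and 7, and the labels describe these numbers both as supplier batches and as clones. The 2 knockout lines, clones 1 and 5, lack MATR3, the gene of the nuclear RNA-binding and DNA-binding protein matrin 3. Each knockout line is 1 clone, all lines were bought from a supplier and grown in the same medium, and the labels name no treatment. The title of the series places the study in the question of whether loss of matrin 3 activates cGAS and STING, the cytosolic DNA sensing pathway.

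Inflammasomes are protein platforms of the innate immune system. A sensor such as NLRP3, NLRC4, NLRP1 or AIM2 recruits the adaptor ASC, encoded by PYCARD, which brings in caspase-1 to cleave interleukin-1 beta, interleukin-18 and gasdermin D and so cause an inflammatory cell death. Apoptosis uses other caspases: caspase-8 starts the death receptor route and is held in check by its relative FLIP (CFLAR), and BCL2, BCL-xL (BCL2L1) and MCL1 block the mitochondrial route. Sensing of cytosolic DNA and interferon signalling are known to meet both systems, since AIM2 itself binds DNA and several of these genes are interferon-inducible.

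Of the 18 genes 11 were tested, and none of these passed the test for a difference between knockout and wild type. The one closest to it was the death-blocking gene BCL2, higher in both knockout lines. The other 7 genes were below the minimum mean and were not tested. The apoptotic genes BCL2L1, MCL1, CFLAR, CASP8 and BCL2, together with PYCARD, exceeded the background limit in all 4 samples, and CASP10 did so in 1. The inflammatory caspases CASP1, CASP4 and CASP5 did not exceed it in any sample, and each of the 6 sensors exceeded it in 0 to 2 samples. The limit was the mean plus 2 SD of the sample's negative control probes, which came to 19.5 to 25.7 normalised counts. Of the 18 genes 6 were above it in all samples, 7 in some and 5 in none, and over all 785 gene probes 49.6% were above it in all samples.

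**Figure D1:**
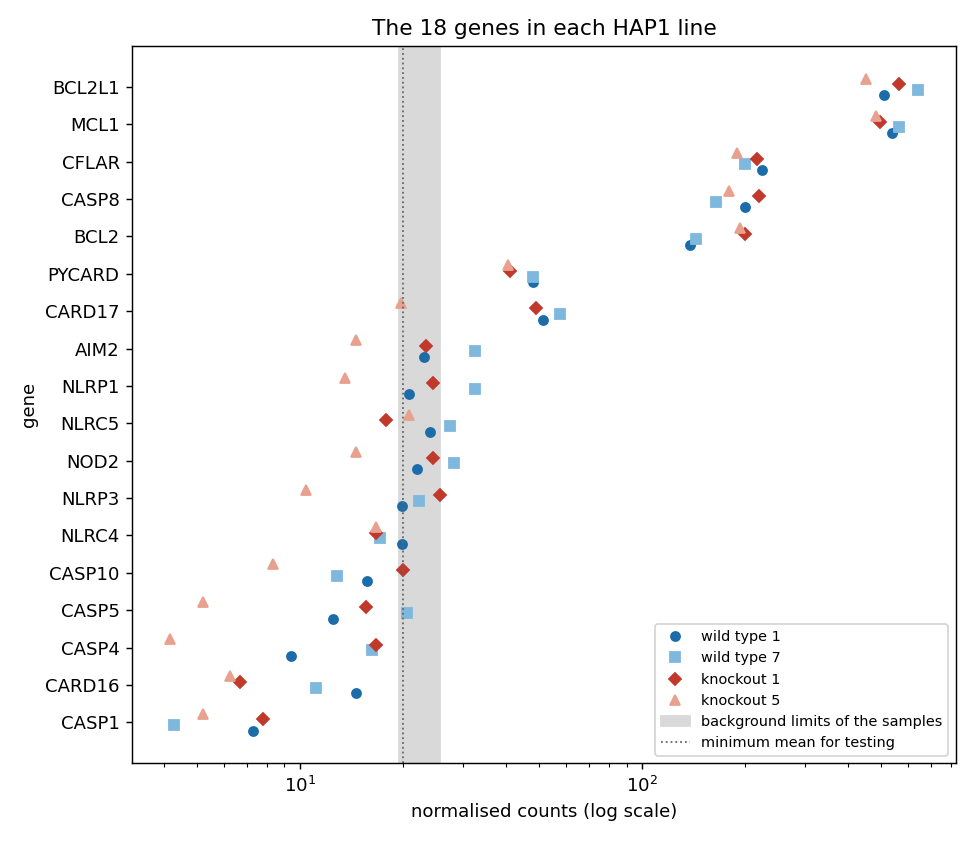
Normalised counts (log scale) of the 18 genes in each line, 1 point per sample, with genes ordered by their mean. The grey band spans the background limits of the 4 samples, 19.5 to 25.7, and the dotted line is the minimum mean of 20 for testing; from BCL2L1 down to BCL2 all points lie to the right of the band, and those of CASP1 lie far to its left.

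The samples held 448610 to 571767 gene counts, and the authors' scaling multiplied them by 0.856 to 1.11. MATR3 was not analysed here, so these values do not check the genotype. Of the 11 leukocyte markers measured, 2 or 3 per sample exceeded the background limit. These were CD14 and CD68 in all 4 samples, and CD4 in wild-type line 7 and knockout line 1. The others, PTPRC, CD3E and ITGAM among them, exceeded it in none. In samples of bulk RNA, fewer cells with a transcript and less of it per cell cannot be told apart. Each line gave 1 sample, so the data hold the spread between lines of a genotype and not that between cultures of 1 line. The limma p-values do not rest on a gene's own spread alone: limma moderates it towards that of tested genes at a similar level.

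The comparison used limma on log2(value + 1) over the 514 genes with a mean of at least 20, with Benjamini-Hochberg adjustment over all of them and a threshold of 0.05. Among the 18 genes 11 met that mean and were tested, and 0 passed, where 8.17% of all tested genes did. At an unadjusted p under 0.05 there was 1 gene, BCL2, where the share over all tested genes was 19.8%. The edgeR quasi-likelihood test on recovered counts also called 0 of the 11, against 7.98% of all genes. DESeq2 called 0, against 10.2% of the 364 genes to which it gave an adjusted p. It gave none to AIM2, NLRC5, NLRP1 and NOD2, so it could not call these sensors. The log2 fold change was above 0 for 2 of the 11 and below 0 for 9, with a median of -0.23, beside a median of -0.04 and a share of 57.6% below 0 over all tested genes. For 5 of the 11 genes, or 45.5%, the genotypes did not overlap, 1 of them with the knockout higher and 4 with it lower. Over all tested genes 53.1% did not overlap, 22.4% with the knockout higher and 30.7% with it lower, so the share among the 11 was near that background, and the filter on the mean decided which of the 18 could enter this count. Leaving out 1 sample can only keep or raise this count, because fewer values then have to lie apart. Without wild-type line 1 it was 10 of 11, where 80.2% of all tested genes did not overlap, and without knockout line 1 it was 10 of 11, against 78.2%. Without wild-type line 7 or without knockout line 5 it was 6 of 11, against 73.9% in each case.

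**Figure D2:**
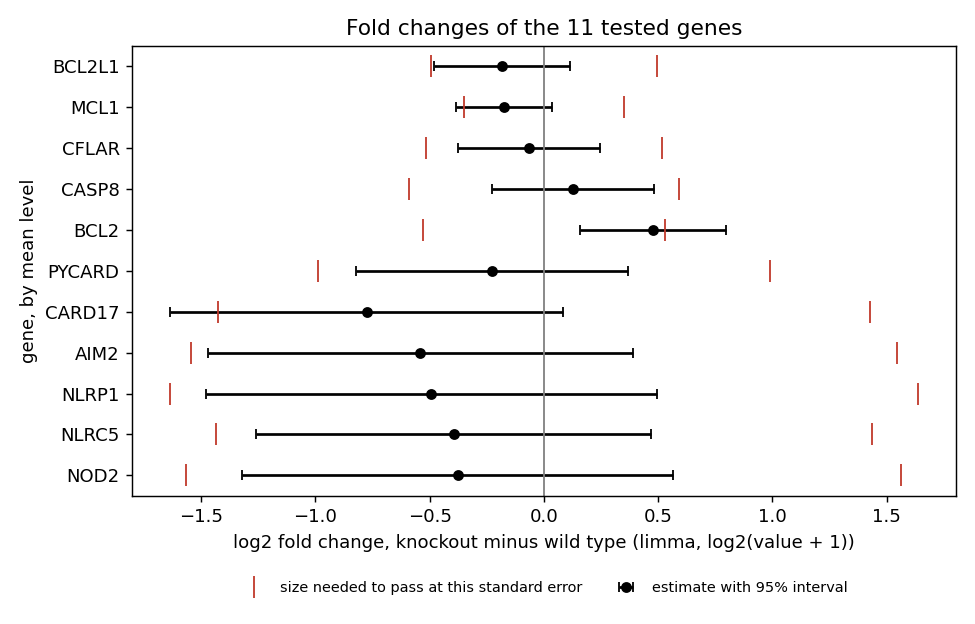
Log2 fold change (knockout minus wild type, on log2(value + 1)) of the 11 tested genes from limma, with 95% intervals as black bars and genes ordered by mean level. Red ticks mark the size each gene would have needed to pass at its own standard error; every point lies between its ticks, and BCL2 (0.48) lies closest to its own.

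The anti-death genes of the BCL2 family differed in direction, and none of the 3 passed the test. BCL2, which holds the pore-forming proteins of the mitochondrial membrane in check, was counted at 138 and 144 (wild-type lines 1 and 7) against 200.3 and 193 (knockout lines 1 and 5) after normalisation. Both knockout values were higher than both wild-type values, and the lines within a genotype differed little, with means of 141 ± 4.26 and 196 ± 5.50 (SD, n = 2). The log2 fold change was 0.48 ± 0.14 (SE), a 1.39-fold difference with a 95% interval of 1.12 to 1.74, and it missed the threshold (limma adjusted p = 0.0746). Counting error alone would give a standard error of 0.11 for this gene. Without any 1 of the samples the log2 fold change was 0.45 to 0.51. Its direction could not have changed there, since the genotypes did not overlap.

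MCL1, a short-lived inhibitor of the same pore-forming proteins, had 537 and 563 normalised counts across the wild type against 494 and 481 across the knockout. The groups did not overlap, in the opposite direction to BCL2. The log2 fold change of MCL1 was -0.17 ± 0.10 (SE) with limma adjusted p = 0.336, and its 95% interval ran from -0.39 to 0.04. BCL2L1, whose main product is the inhibitor BCL-xL, had 510.2 and 639.99 (wild-type lines 1 and 7) against 562 and 449.55 (knockout lines 1 and 5). Its values overlapped, with knockout line 1 between the wild-type lines and knockout line 5 below them. Its log2 fold change was -0.18 ± 0.14 (SE) with adjusted p = 0.46, with an interval of -0.48 to 0.11. The log2 fold change of BCL2L1 was -0.02 without wild-type line 7 and also without knockout line 5.

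A ratio of 2 genes within a sample does not depend on how the samples were scaled. The log2 ratio of BCL2 to MCL1 was -1.96 and -1.97 (wild-type lines 1 and 7) against -1.30 and -1.32 (knockout lines 1 and 5). The difference of 0.66, or 1.58-fold, was larger than the spread between lines, and an exact two-sided permutation test gave p = 0.333, the smallest value that 2 against 2 samples allow. In both knockout lines BCL2 by itself was higher and MCL1 by itself lower, each without overlap. Their ratio therefore had to separate the genotypes and give this p, and it adds no separate test of BCL2. Counting error alone would give the difference of 0.66 a standard error of 0.13, more than the SDs of 0.0039 and 0.013 within the genotypes. The log2 ratio of BCL2 to BCL2L1 was -1.89 and -2.15 in the wild type and -1.49 and -1.22 in the knockout, again without overlap and with a difference of 0.67 (exact permutation p = 0.333). That of MCL1 to BCL2L1 overlapped between the genotypes, with a difference of 0.01 (exact permutation p = 1.0). These 3 pairs and the pair of CASP8 and CFLAR were chosen after the values had been seen, and the exact test cannot reach 0.05 for any of the 4 with 2 lines against 2.

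**Figure D3:**
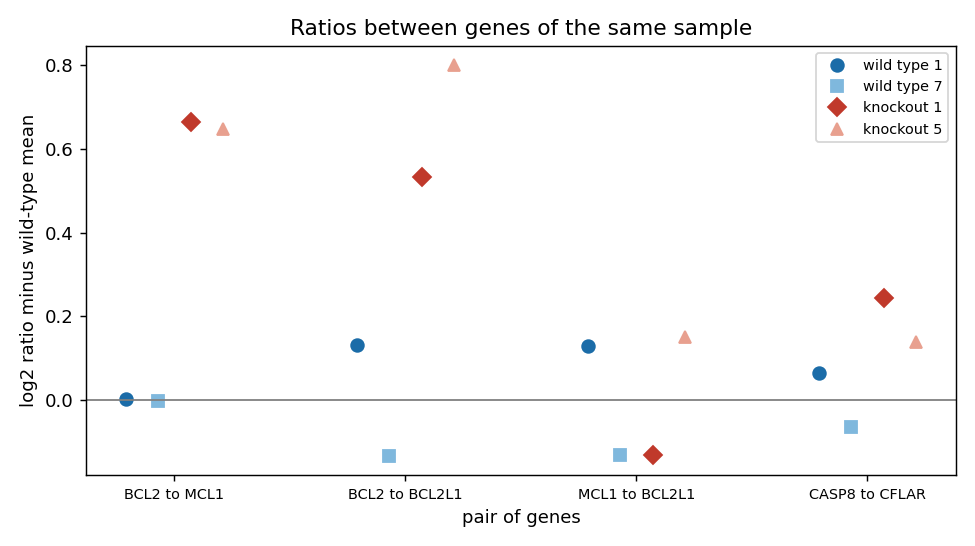
Log2 ratio of 4 gene pairs in each line, minus the mean ratio of the 2 wild-type lines, 1 point per sample. For BCL2 to MCL1 the knockout lines lie 0.66 above the wild-type lines on average, and for MCL1 to BCL2L1 the genotypes overlap.

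Whether BCL2 passed depended on the scaling. In the deposited values the geometric mean of 10 reference genes, TBP among them, differed by at most 1.04e-05 (log2) between samples. The log2 fold change of TBP itself was 0.75. With TBP left out of the reference genes the median log2 fold change over all tested genes moved up by 0.08, and BCL2 passed at 0.56 (limma adjusted p = 0.0267), where 12.1% of all tested genes passed. With equal sample medians, where 8.56% of all tested genes passed, BCL2 did not (limma adjusted p = 0.0576). With only genes of a mean of 50 or more tested, of which 13.8% passed, it did not either (adjusted p = 0.0603). Scaling on the positive control probes gave an adjusted p of 0.15. Over all 17 alternatives BCL2 ranged from 0.45 to 0.56 in log2 fold change, so it stayed above 0, and its limma, edgeR or DESeq2 adjusted p ranged from 0.0267 to 0.219.

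The initiator side of the death receptor route showed no difference beyond its error. CASP8, the initiator protease, had 200.3 and 164 normalised counts across the wild type against 219 and 179 across the knockout. The samples interleave, and the log2 fold change of 0.13 ± 0.16 (SE) with limma adjusted p = 0.643 had a 95% interval equal to 0.853-fold to 1.40-fold. CFLAR, which blocks caspase-8 at the receptor complex, had 223 and 200.2 across the wild type against 216 and 189 across the knockout. Its log2 fold change was -0.06 ± 0.14 (SE) with adjusted p = 0.829, with an interval of 0.771-fold to 1.19-fold, and it turned to 0.02 with TBP left out of the reference genes. CASP10, a close relative of caspase-8, was below the minimum mean, at 15.65 and 12.8 across the wild type against 20.03 and 8.33 across the knockout. Of these values that of knockout line 1 alone exceeded its background limit. In RefSeq's gene order CFLAR, CASP10 and CASP8 follow one another on chromosome 2 with no other protein-coding gene between them. The log2 ratio of CASP8 to CFLAR was higher in both knockout lines, by 0.19 (exact permutation p = 0.333). This difference would have a standard error of 0.15 from counting error alone.

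Promoter windows, from 250 bases before to 50 after a start site, were taken from RefSeq on GRCh38.p14 and matched by symbol for 11 of the 18 genes, with 20 windows in all. They were searched on both strands for the core of the interferon-stimulated response element GAAANNGAA, for the STAT site TTCNNNGAA, and for the NF-kB consensus. The sequences of BCL2, which came closest to a call of the genes with a window, of the neighbours CASP8 and CFLAR, and a stretch of the promoter of the DNA sensor AIM2 are shown because the study asks about a pathway that acts through interferon and NF-kB. For CASP8, with 3 windows, and CFLAR, with 4, a window with the most matches was picked, so the others hold no more. They run 5′ to 3′ on the gene's strand, and capitals mark the matches.
BCL2, chr18:63319720-63320019, minus strand: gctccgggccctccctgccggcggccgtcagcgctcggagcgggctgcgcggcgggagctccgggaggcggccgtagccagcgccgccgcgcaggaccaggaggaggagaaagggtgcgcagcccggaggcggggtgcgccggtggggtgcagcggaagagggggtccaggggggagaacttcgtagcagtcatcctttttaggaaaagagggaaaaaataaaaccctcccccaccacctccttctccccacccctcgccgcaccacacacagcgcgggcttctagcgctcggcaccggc
CASP8, chr2:201233213-201233512, plus strand: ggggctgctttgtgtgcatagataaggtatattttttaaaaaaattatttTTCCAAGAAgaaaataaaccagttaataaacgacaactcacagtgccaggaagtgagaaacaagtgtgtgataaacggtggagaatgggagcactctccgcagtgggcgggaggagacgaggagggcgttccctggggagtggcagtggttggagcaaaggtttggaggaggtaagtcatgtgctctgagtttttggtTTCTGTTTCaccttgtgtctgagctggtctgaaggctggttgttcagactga
CFLAR, chr2:201118466-201118765, plus strand: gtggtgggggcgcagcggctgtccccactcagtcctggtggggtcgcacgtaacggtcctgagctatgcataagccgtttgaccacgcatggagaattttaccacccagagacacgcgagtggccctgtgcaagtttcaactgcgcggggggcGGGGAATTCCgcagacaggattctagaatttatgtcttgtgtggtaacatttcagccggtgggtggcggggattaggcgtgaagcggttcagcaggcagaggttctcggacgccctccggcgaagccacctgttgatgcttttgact
AIM2, chr1:159076927-159076975, minus strand: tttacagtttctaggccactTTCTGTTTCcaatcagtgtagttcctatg

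In the CASP8 window the first capitals are a STAT match and the second are the response element core on the opposite strand, which spans positions -2 to 6 where 0 is the start site. The CFLAR window holds 1 NF-kB match, at -97 to -88, and the AIM2 stretch holds the response element core on the opposite strand, at -189 to -181. The BCL2 window holds no match to these letters. The response element core was found in 5 of the 20 windows, 1 each of AIM2, CASP5, CASP8, NLRC4 and another start site of CFLAR, and in 8.11% of all 35116 windows. The STAT site was found for CASP5 and CASP8 and in 7.66% of all windows, and the NF-kB consensus for CFLAR and in 5.91%. AIM2 and CASP8 did not pass the test, with log2 fold changes of -0.54 ± 0.42 and 0.13 ± 0.16 (SE), and CASP5 was below the minimum mean. A match describes the letters of the window and does not show that a factor binds there.

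Among the sensors 4 of 6 were tested, and all 4 had a log2 fold change below 0 without passing, although cyclic loess turned NLRC5 to 0.05 and NOD2 to 0.08. For 3 of the 4 the difference shrank without knockout line 5, to -0.22 for AIM2, -0.09 for NLRP1 and -0.02 for NOD2. That of NLRC5 was then -0.50. Without wild-type line 7 it shrank as well, to -0.30 for AIM2, -0.18 for NLRP1, -0.20 for NOD2 and -0.30 for NLRC5. AIM2, the sensor of cytosolic DNA, had 22.95 and 32.5 normalised counts (wild-type lines 1 and 7) against 23.4 and 14.6 (knockout lines 1 and 5). Knockout line 1 lay between the wild-type lines and knockout line 5 was the lowest, so the groups overlapped (log2 fold change -0.54 ± 0.42, SE, with limma adjusted p = 0.471). NLRP1, a sensor of proteases and of double-stranded RNA, had 20.9 and 32.5 across the wild type against 24.5 and 13.5 across the knockout, with the same order of samples and a log2 fold change of -0.49 ± 0.45 (SE) with adjusted p = 0.527. NOD2, which senses bacterial cell wall fragments and signals through NF-kB rather than through caspase-1, had 21.9 and 28.2 across the wild type against 24.5 and 14.6 across the knockout. Its log2 fold change was -0.38 ± 0.43 (SE) with adjusted p = 0.61.

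NLRC5, the transactivator of MHC class I genes, was the 1 tested sensor whose groups did not overlap. It had 24.0 and 27.4 normalised counts across the wild type against 17.8 and 20.8 across the knockout, and a log2 fold change of -0.40 ± 0.39 (SE) with limma adjusted p = 0.571. Only wild-type line 7 was above its background limit. NLRP3 and NLRC4, the sensors of cell damage and of bacterial flagellin, were below the minimum mean. NLRP3 had 19.8 and 22.25 across the wild type against 25.6 and 10.4 across the knockout, the highest and the lowest value both being knockout. NLRC4 had 19.8 and 17.1 across the wild type against 16.7 and 16.65 across the knockout, all below the background limits.

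PYCARD, the adaptor ASC that joins sensors to caspase-1, was above background in every line. Its normalised counts were 48.0 and 47.9 (wild-type lines 1 and 7) against 41.2 and 40.6 (knockout lines 1 and 5). The groups did not overlap, and the lines of a genotype were closer than counting error would make them, but the limma estimate of -0.23 ± 0.27 (SE) on the log2 scale did not exceed its error (adjusted p = 0.626). Cyclic loess brought it to 0.0013. The 95% interval of PYCARD ran from 0.566-fold to 1.29-fold.

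CARD17 had the largest fold change of the 11, and it rested on 1 line. CARD17 is a CARD-only relative of caspase-1, and RefSeq now lists it under the symbol CARD17P as a transcribed pseudogene. Its normalised counts were 51.1 and 57.3 (wild-type lines 1 and 7), 49.0 (knockout line 1) and 19.8 (knockout line 5), from 49, 67, 44 and 19 counts. Knockout line 1 was close to the wild type, and knockout line 5 was under the background limit of that sample, which was 21.7. By limma CARD17 had a log2 fold change of -0.78 ± 0.39 (SE) with limma adjusted p = 0.306. Without knockout line 1 it was -1.41 (adjusted p = 0.0065), where 15.0% of all tested genes passed, and without knockout line 5 it was -0.14 (adjusted p = 0.902).

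CARD17 lies on chromosome 11 in a row of related genes, in RefSeq's order CASP4, CASP5, CASP1, CARD16 and CARD17, with no other protein-coding gene between them and 1 transcribed pseudogene between CARD16 and CARD17. The other 4 were below the minimum mean and did not exceed the background limit in any line. CASP1, which activates interleukin-1 beta, had 7.30 and 4.28 normalised counts across the wild type against 7.79 and 5.20 across the knockout. CASP4, a sensor of intracellular lipopolysaccharide, had 9.39 and 16.3 across the wild type against 16.7 and 4.16 across the knockout. CASP5, its close paralog, had 12.5 and 20.5 across the wild type against 15.6 and 5.20 across the knockout. For these 3 caspases the genotypes overlapped, and no change was detectable at these levels. CARD16, a CARD-only inhibitor of caspase-1, had 14.6 and 11.1 across the wild type against 6.68 and 6.24 across the knockout, from 14, 13, 6 and 6 counts. Its groups did not overlap, and all 4 values were below background. CARD16, CARD17 and CASP1 are close in sequence, and which of their transcripts each probe binds was not tested.

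Knockout line 5 was the lowest sample for most of the low genes. Of the 13 genes with a mean under 50 normalised counts, knockout line 5 had the lowest value for 11, or 84.6%, and wild-type line 7 the highest for 6, or 46.2%. Over all 444 gene probes with such a mean these were 57.2% and 53.6% of the probes, while among the 341 probes with a higher mean knockout line 5 was lowest for 20.5%. The median log2 difference of knockout line 5 minus knockout line 1 was -0.71 for the 13 genes and -0.34 for the 444. The 6 tested genes of this kind all had a log2 fold change below 0, with a median of -0.44, beside a median of -0.43 and a share of 83.2% below 0 among all 173 tested genes under that mean. Cyclic loess put 3 of the 6, NLRC5, NOD2 and PYCARD, above 0. The negative control probes averaged 8.87 and 8.56 (wild-type lines 1 and 7) against 8.48 and 7.93 (knockout lines 1 and 5) in normalised counts. The summed level of the 11 leukocyte markers was also lowest in knockout line 5, at 178 and 221 normalised counts for the wild type (lines 1 and 7) and 156 and 140.5 for the knockout (lines 1 and 5). The part of background and those transcripts in the lower values of the sensors and CARD genes was not tested.

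**Figure D4:**
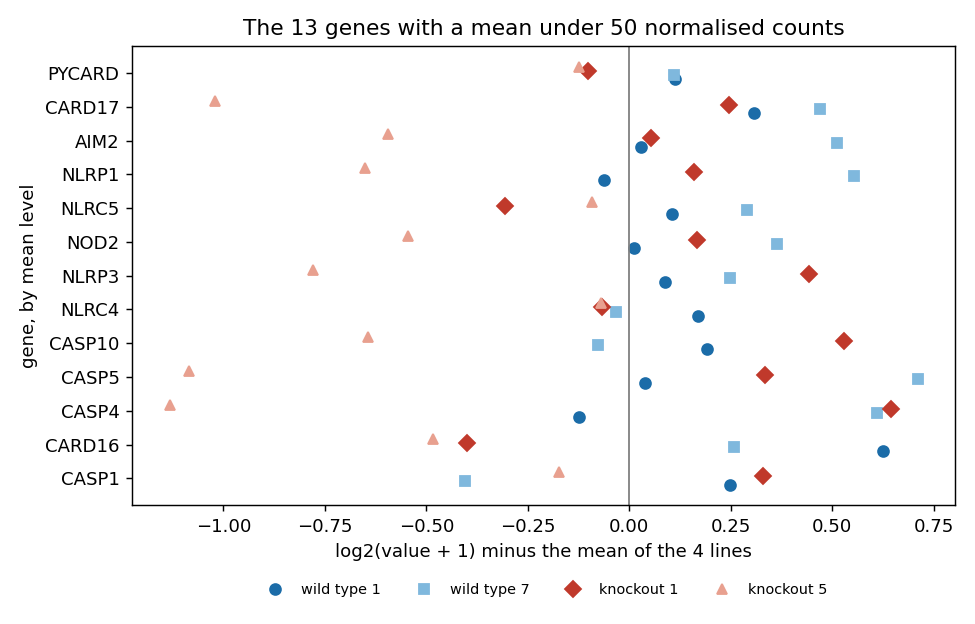
Log2(value + 1) of the 13 genes with a mean under 50 normalised counts, minus the mean of the 4 lines, 1 point per sample, with genes ordered by mean level. Knockout line 5 is the leftmost point for 11 of the 13 genes, and its distance is greatest for CASP4, CASP5 and CARD17.

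The size of change that could have been called differed between the 2 ends of the range. At their own standard errors the 5 tested genes with a mean of 50 or more would have passed with a fold of 1.28, for MCL1, to 1.5, for CASP8. The 6 below that mean would have needed 1.98, for PYCARD, to 3.11, for NLRP1. Among the 173 tested genes with a mean under 50, limma called 0.

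The genes that act with these families were read from the same fit. Of 69 partners listed, 38 were measured and 28 tested, and 2 passed, both higher in the knockout. Over all tested genes 6.23% were called higher. The median log2 fold change of the 28 was 0.05. Both belong to the 9 tested partners of NOD and CARD signalling. TAB2, an adaptor that links RIPK2 and TRAF6 to the kinase TAK1, rose from 357 and 364 normalised counts (wild-type lines 1 and 7) to 693 and 816 (knockout lines 1 and 5). Its log2 fold change was 1.06 ± 0.11 (SE) with limma adjusted p = 6.1e-05, and its call was absent in 1 of 17 alternatives, limma without the trend (adjusted p = 0.0774). SYK, a tyrosine kinase upstream of CARD9 signalling, rose from 34.4 and 40.2 to 83.5 and 66.6, or by 0.98 ± 0.26 (SE) with adjusted p = 0.0411. The call of SYK did not hold in 6 of 17 alternatives, including edgeR (adjusted p = 0.0519) and the fits without wild-type line 1 (limma adjusted p = 0.0893) or knockout line 1 (0.0951). None of the 9 tested inflammasome partners and products and none of the 10 tested apoptosis partners passed limma, with median log2 fold changes of 0.05 and 0.08. At an unadjusted p under 0.05 there were 2 and 0 of these, where the share over all tested genes was 19.8%. The 2 were TXNIP and SUGT1, both named after their values were seen. TXNIP was lower on average in the knockout, with a log2 fold change of -0.52 ± 0.23 (SE), and its genotypes overlapped. The nearest to the threshold was SUGT1, a co-chaperone that keeps NLR sensors competent. SUGT1 had 2009 and 1930.3 normalised counts across the wild type against 2287 and 2406 across the knockout, without overlap. Its estimate was 0.25 ± 0.07 (SE) on the log2 scale with limma adjusted p = 0.0501, and it passed in 9 of 17 alternatives, DESeq2 among them (adjusted p = 0.038). DESeq2 called 2 partners, TAB2 and SUGT1, and edgeR with the authors' factors called TAB2 alone.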

How the data were processed

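The deposited table held NanoString values of 785 gene probes, with 6 positive and 8 negative control probes, in 2 wild-type and 2 MATR3 knockout lines. The deposited values of genes are a signal scaled by the authors: dividing each sample by 1 factor returned whole counts for 100% of the values over the lowest steps, within 0.006. The submitters' processing notes name R 4.1.1. The scaling method is not given in the sources used here. In wild-type line 7, 4 values stood at exactly 1.00.

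Here limma 3.58.1 in R 4.3.3 (lmFit, eBayes with trend, two-sided) was fitted to log2(value + 1) of the 514 genes whose mean reached 20, without covariates. This scale understates changes of low genes. Alternatives, including edgeR 4.0.16 and DESeq2 1.42.0 on recovered counts, are given in the closing section. The fit was tested on simulated counts: it recovered 96.6% of 177 changed genes among 476, with 8 false calls. These figures are over genes of all levels together. The share recovered among genes with a mean under 50 was not tested, so the 96.6% does not describe the low genes. The share recovered at fold changes as small as those estimated here for BCL2 or MCL1 was not tested either. The genes that matched the symbol rule are reported except 2, which are not reported here, and partners that passed the threshold are named. The genes and lists were chosen with earlier results of these data known. CARD17 was placed with the adaptors after the table was seen. Sequences come from RefSeq (GRCh38.p14), where 17 of the 18 genes matched by symbol and CARD17 by synonym.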

Additional observations from a re-analysis of the deposited data

How the results depend on the processing

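All alternatives were listed before the fits were run, with earlier results of these data known. The number of genes past the threshold among the 11 tested, 0 in the report, was 1 with the reference genes without TBP (BCL2), and between 0 and 1 when samples were left out in turn, where the gene was CARD17 without knockout line 1. The number over all tested genes, 42, was 69 after cyclic loess and 4 when limma had no trend, and ranged from 29 to 77 without single samples. The edgeR test called 41 and, with TMM factors, 29. The number of partners called, 2, was 4 with the reference genes without TBP, 4 after cyclic loess, 0 when limma had no trend, 1 with edgeR on the authors' factors and 1 with TMM factors, and 2 to 3 without single samples.

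No sign changed for BCL2, MCL1, BCL2L1, CARD17, AIM2 or NLRP1 in the 16 or 17 alternatives run for each, but sizes moved. For BCL2, MCL1 and CARD17, whose groups did not overlap, leaving out a sample could not have changed the sign. With samples left out in turn BCL2L1 ranged from -0.35 to -0.02, AIM2 from -0.86 to -0.22, NLRP1 from -0.90 to -0.09, NOD2 from -0.73 to -0.02 and CARD17 from -1.41 to -0.14. With cyclic loess AIM2 was -0.10 and NLRP1 -0.04. MCL1 was -0.09 when TBP was left out of the reference genes. With samples left out in turn CASP8 ranged from -0.019 (no knockout line 1) to 0.27, with -0.016 for no wild-type line 7. CFLAR ranged in the same way from -0.16 to 0.030, with 0.014 for no wild-type line 1, and was 0.019 when TBP was left out of the reference genes. With cyclic loess NLRC5 turned to 0.050, NOD2 to 0.075 and PYCARD to 0.0013. The cause was not tested. Where 1 sample remained in a group, it was assumed to vary as the other group does. No paired analysis was possible because wild-type and knockout lines have 1 number in common. The low genes had larger errors, with a median standard error of 0.40 under a mean of 50 and 0.12 above it. The part of depth in this was not tested.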
